A study of Bos taurus with 14 samples.

Results

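The miR-29 family was followed in small RNA libraries from the blood of 4 non-lactating, rumen-cannulated Holstein cows. The cows were sampled first on a forage diet without concentrate (FD) and then in week 1 of a high-grain diet with 65% concentrate (HG). Cell-free plasma gave 4 FD and 4 HG libraries from cows 1 to 4, and leucocytes taken from the buffy coat of the same blood gave 3 FD and 3 HG libraries from cows 1, 3 and 4. All groups share the breed, the cannula and the non-lactating state, the diets always followed each other in the same order, and diet can therefore not be told apart from time. The study used the grain diet to provoke subacute ruminal acidosis and asked whether microRNAs in blood respond to it. Members were the rows named bta-miR-29 followed by a letter, which gave 6 of 932 names: bta-miR-29a, bta-miR-29b, bta-miR-29c, bta-miR-29d-3p, bta-miR-29d-5p and bta-miR-29e.

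MicroRNAs are short RNAs that guide the silencing complex to messenger RNAs, mainly through the seed near their 5′ end. The mature miR-29a, miR-29b and miR-29c of mammals share a seed and are known for repressing collagens and other extracellular matrix genes, the de novo DNA methyltransferases DNMT3A and DNMT3B, and the survival factor MCL1. In blood cells the family is best known from T lymphocytes, where it restrains interferon gamma, and from leukaemias in which it is lost. Each hairpin yields a 3′ arm, which is the usual guide strand in this family, and a 5′ arm that is mostly degraded.

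In the UMD3.1 build the members lay in a chromosome 4 group and in 2 chromosome 16 groups. Mature bta-miR-29a was placed at chr4:95402359-95402381 on the minus strand, and bta-miR-29b from its first hairpin at chr4:95402744-95402766, with starts 385 bases apart. The second copy of bta-miR-29b was at chr16:77478084-77478106 on the plus strand and bta-miR-29c at chr16:77478646-77478667, with starts 562 bases apart. The remaining group held bta-miR-29e at chr16:77562050-77562073, bta-miR-29d-5p at chr16:77562553-77562573 and bta-miR-29d-3p at chr16:77562591-77562612, whose start was 83945 bases from that of bta-miR-29c. In the RefSeq annotation of another assembly (ARS-UCD2.0), MIR29A and MIR29B-1 lie within the long non-coding RNA gene LOC107131356, no gene lies between MIR29B-2 and MIR29C, and MIR29E and MIR29D lie within the protein-coding gene LOC518224.

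Libraries held 376589 to 4464702 assigned reads in plasma and 21764579 to 66070770 in leucocytes. The sample types were also extracted with different kits, so that cell source, kit and depth cannot be told apart. As a check of the labels, miR-122, a liver microRNA, was at 5170 to 61652 divided reads per 1000000 assigned reads in plasma and at 16.7 to 75.7 in leucocytes. All 8 leucocyte marker names had reads in every library, so their presence does not separate the sample types. On the same scale they summed to 14797 to 20180 in FD plasma and 25475 to 31221 in FD leucocytes. On HG the sums overlapped, at 19751 to 25256 in plasma and 20764 to 29598 in leucocytes. A list of 6 names abundant in erythrocytes summed to 204334 to 351054 on the same scale in leucocytes against 41015 to 116075 in plasma, so the leucocyte libraries carried the larger erythrocyte signal.

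Levels are given in divided RPM (reads per 1000000 assigned reads), for which the authors' pipeline split each read evenly over all entries it fitted and the result was scaled here to the library. bta-miR-29a dominated the family, with 84.3% ± 5.68 (SD, n = 8) of the family's divided reads in plasma and 88.4% ± 0.899 (SD, n = 6) in leucocytes. Its rank among the bta names, taken on undivided reads, ran from 8 to 25 in plasma and from 25 to 32 in leucocytes. bta-miR-29c held 7.83% ± 3.0 of the family in plasma and 6.88% ± 0.708 in leucocytes, and bta-miR-29b 5.55% ± 1.52 and 3.85% ± 0.565. bta-miR-29d-3p made up 2.05% ± 1.53 in plasma but 0.210% ± 0.0331 in leucocytes, so that its place among the members differed most between the sample types. The level of bta-miR-29b is set by the counting as well, because its reads map to 2 hairpins and to the human entry. The divided count kept 17.5 to 24.8% of them, against about 50% for bta-miR-29a. Without the dividing, mean reads per 1000000 assigned reads were 2982 for bta-miR-29b and 2783 for bta-miR-29c in plasma. In leucocytes these means were 560 and 498, so the order of these members depends on the dividing.

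The bta rows of the family together took 1.14% ± 0.564 of assigned reads in FD plasma and 0.844% ± 0.281 in HG plasma (SD, n = 4 each). In leucocytes they took 0.410% ± 0.0813 on FD and 0.303% ± 0.0230 on HG (SD, n = 3 each). The human-named rows hold another part of the same divided reads, but not all of the rest. For miR-29b the bta row and the human row each kept only 17.5 to 24.8% of the reads. With the human-named rows added, the share was 2.24% in FD plasma, 1.67% in HG plasma, 0.821% in FD leucocytes and 0.607% in HG leucocytes. These shares still count miR-29b in part only. The share was lower on HG in 3 of 4 cows in plasma and in 3 of 3 in leucocytes. With undivided reads it was lower in 2 of 4 cows in plasma and again in 3 of 3 in leucocytes, so the plasma tally depends on the dividing. These sums follow bta-miR-29a and are given without a test.

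**Figure D1:**
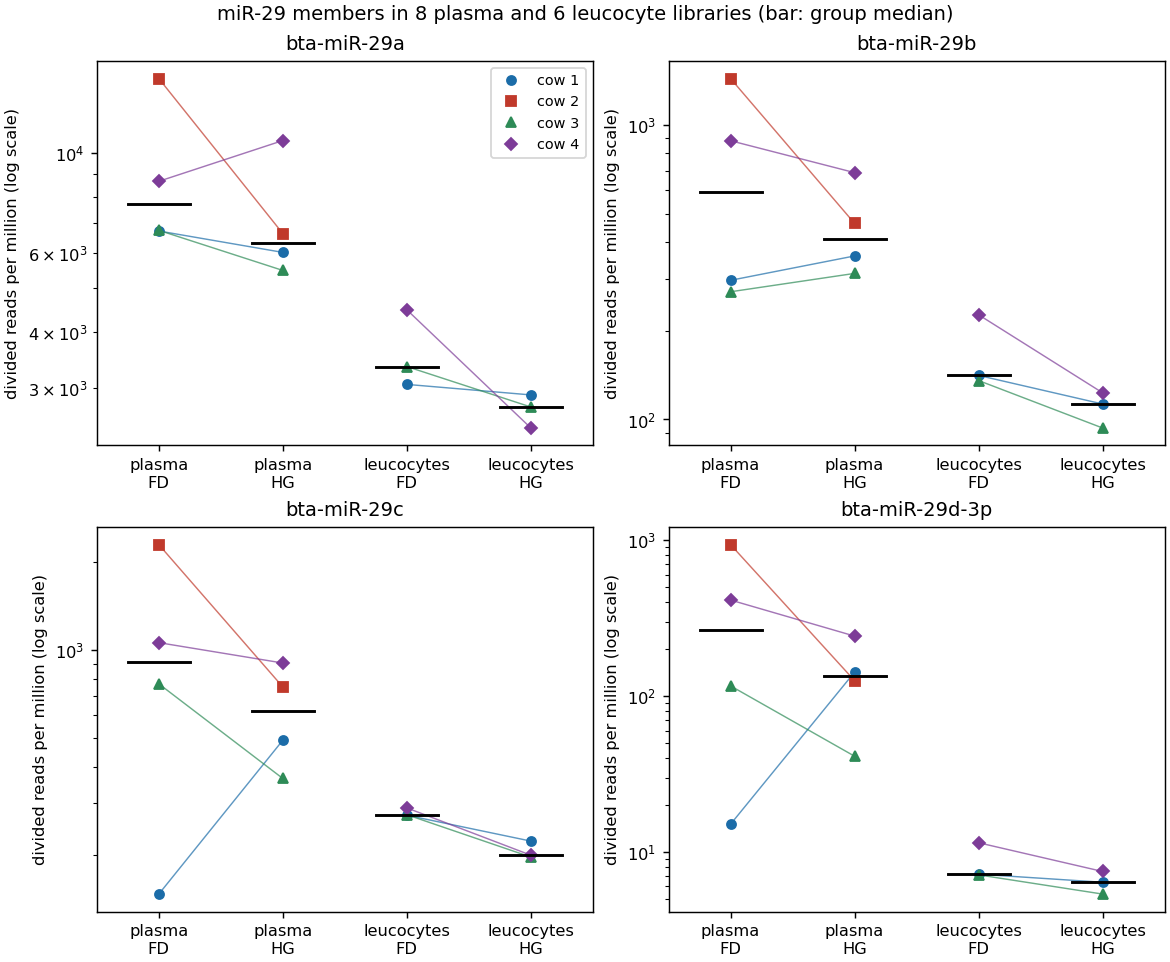
Divided RPM (log axis) of bta-miR-29a, bta-miR-29b, bta-miR-29c and bta-miR-29d-3p in each library. Points are libraries, marked by cow and joined within a cow, and bars are group medians. Plasma points lie above the leucocyte points except for bta-miR-29c of cow 1 on FD, at 146.9 RPM.

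Diet was examined first in leucocytes, where the family's 3 main guide strands were lower on HG in every cow. bta-miR-29a stood at 3052, 3345 and 4476 divided RPM in cows 1, 3 and 4 on FD. On HG the same cows gave 2892, 2718 and 2441. All HG libraries lay below all FD libraries, and the drop was smallest in cow 1 and largest in cow 4.

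bta-miR-29b, encoded at both main clusters, was at 141.1, 135.5 and 226.7 RPM on FD. On HG it was at 112.8, 93.6 and 123.2. The groups did not overlap, with cow 4 again the highest on FD. bta-miR-29c was at 273.2, 274.2 and 289.3 on FD and at 222.9, 196.5 and 199.5 on HG, also without overlap and with little spread on FD. Among all 779 names, 8.86% had every HG library below every FD library, and 3 of the 6 members did.

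The edgeR quasi-likelihood test with cow as a block called none of the 6 members at an adjusted p of 0.05, against 14 of 779 names (1.8%). The log2 fold change (HG over FD) was -0.58 ± 0.149 (SE) for bta-miR-29b, with an adjusted p of 0.093. It was -0.44 ± 0.131 for bta-miR-29c (adjusted p = 0.128) and -0.42 ± 0.154 for bta-miR-29a (adjusted p = 0.213). These 3 members had unadjusted p-values of 0.00242, 0.00635 and 0.0192 in the edgeR fit, and 14.9% of all names were under 0.05 before adjustment. The median over the members was -0.43, and over all names it was -0.02.

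The missed threshold depended on the tool and on cow 4. DESeq2 placed bta-miR-29b at an adjusted p of 0.00531 and bta-miR-29c at 0.0477. The study, which used DESeq2 with cow and diet in its model, also listed both as differentially expressed in leucocytes, lower on HG. Without cow 4, edgeR gave adjusted p-values of 0.0189 and 0.041 for the same members, with 111 of all names called. For bta-miR-29a the log2 fold change without cow 4 was smaller, at -0.21 (adjusted p = 0.336). The erythrocyte list also moved in that cow, from 204334 RPM on FD to 351054 on HG, and in cow 1 from 256385 to 262794, but was lower on HG in cow 3, at 230576 against 241462, and 1 of its 6 names was called lower. The list of 8 leucocyte markers went from 31221 to 20764 RPM in cow 4 and from 26406 to 22873 in cow 1, and from 25475 to 29598 in cow 3, with 2 names called lower. The part of either list in the members' values was not tested. In such bulk samples, fewer cells of a type and less RNA per cell cannot be told apart.

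The remaining members moved less clearly. bta-miR-29d-3p was at 7.2, 7.12 and 11.4 RPM on FD and at 6.39, 5.36 and 7.49 on HG, lower in 3 of 3 cows but with overlapping groups (log2 fold change -0.40 ± 0.202, adjusted p = 0.408). bta-miR-29d-5p went the other way, from 22.4, 20.1 and 22.5 RPM on FD to 22.6, 28.2 and 26.5 on HG. All its HG libraries lay above all FD libraries, as for 5.91% of all names, and its log2 fold change was 0.24 ± 0.177 (adjusted p = 0.575). bta-miR-29e was barely detected, with 15, 26 and 0 reads on FD and 7, 3 and 2 on HG, and no fold is given.

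In plasma the groups overlapped for all 6 members, while 0% of 536 names had every HG library below every FD library and 5.04% had every HG library above. bta-miR-29a was at 6706, 14660, 6729 and 8654 divided RPM in cows 1 to 4 on FD. On HG it was at 6008, 6617, 5477 and 10666. It was lower on HG in cows 1, 2 and 3 and higher in cow 4, and the FD library of cow 2 was the highest of all.

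bta-miR-29b was at 297, 1436, 271 and 883 RPM on FD and at 359, 463, 313 and 688 on HG. bta-miR-29c was at 147, 2295, 768 and 1061 on FD and at 493, 749, 365 and 904 on HG. Cow 2 had the highest FD value for both, and cow 1 the lowest FD value for bta-miR-29c.

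bta-miR-29d-3p had the widest range, with 15.1, 937, 116 and 413 RPM on FD and 142, 126, 41.1 and 243 on HG. The lowest FD value belonged to cow 1, whose FD library was the shallowest. bta-miR-29d-5p was at 0, 132, 2.28 and 52.9 on FD and at 29.3, 47.7, 8.94 and 4.71 on HG, higher in 2 cows and lower in 2. bta-miR-29e had 4 and 8 reads in cows 2 and 4 on FD, 3 reads in cow 1 on HG and none listed elsewhere.

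With edgeR, 0 of 6 members were called in plasma, where 0 of 536 names (0%) were. At an unadjusted p under 0.05 there were 46 names (8.58%) and no member, and DESeq2 called 10 names and no member. The log2 fold change was -0.73 ± 0.495 for bta-miR-29a (adjusted p = 0.769), -0.79 ± 0.631 for bta-miR-29b (adjusted p = 0.891), -0.89 ± 0.871 for bta-miR-29c (adjusted p = 0.947) and -1.44 ± 1.29 for bta-miR-29d-3p (adjusted p = 0.947). For bta-miR-29d-5p it was -0.45 ± 2.10 (adjusted p = 0.960), and its sign depended on the scaling and on single cows. All names had a median of 0.26. Single cows moved these values. Without cow 1, edgeR gave 4 members an unadjusted p under 0.05, and 87 of all 509 names tested had one too. The log2 fold changes of these 4 members were -2.46 to -1.12, but their adjusted p was not below 0.269. Without cow 2 the log2 fold change was -0.25 for bta-miR-29a, -0.17 for bta-miR-29b, -0.14 for bta-miR-29c and -0.28 for bta-miR-29d-3p, each with an adjusted p of 0.994. The liver marker miR-122 moved in the same direction as bta-miR-29c and bta-miR-29d-3p in each cow, from 5170 to 23762 RPM in cow 1, from 52544 to 14690 in cow 2, from 61652 to 10577 in cow 3 and from 37988 to 19560 in cow 4. By the estimate given below, a mean of 97.2% of the plasma reads of bta-miR-29d-3p were shared with bta-miR-29b and bta-miR-29c. The changes of bta-miR-29c and bta-miR-29d-3p are therefore not independent. bta-miR-29a and bta-miR-29b did not follow miR-122 in every cow. A muscle list (miR-1, miR-133a and miR-206) moved opposite to miR-122 in each cow. In cows 1 to 4 it went from 811 to 201, 286 to 828, 252 to 1375 and 250 to 272 RPM. The erythrocyte list also moved opposite, from 107640 to 41015, 115916 to 116075, 64002 to 113667 and 71097 to 74013. The leucocyte list was higher on HG in each cow. The part of these markers in the members' values was not tested.

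**Figure D2:**
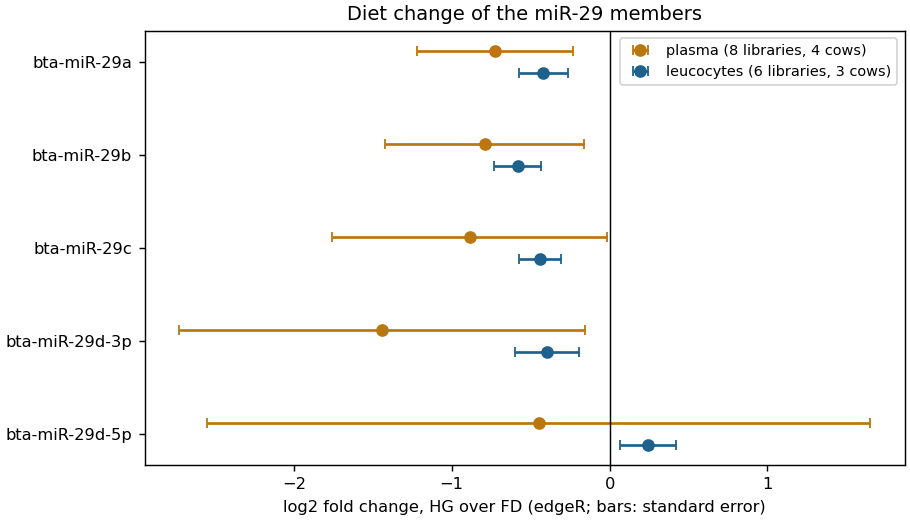
Log2 fold change (HG over FD) of 5 members from edgeR in plasma and leucocytes, with bars of 1 standard error. Leucocyte bars are short, at -0.58 to -0.42 for bta-miR-29a, bta-miR-29b and bta-miR-29c, and plasma bars are wide. bta-miR-29e is left out because of its few reads.

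Whether the diet change itself differed between sample types was tested as an interaction. None of the 6 members was called by edgeR, and neither was any of the 797 names (0%), of which 93 (11.7%) had an unadjusted p under 0.05. DESeq2 called 14 names and no member. The difference of the log2 fold changes (leucocytes minus plasma) was 0.42 ± 0.557 for bta-miR-29a, 0.31 ± 0.729 for bta-miR-29b and 0.53 ± 1.03 for bta-miR-29c, each with an adjusted p of 1.

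Between sample types, bta-miR-29d-3p differed most. Its 8 plasma libraries ranged from 15.1 to 937 divided RPM with a median of 134, and its 6 leucocyte libraries from 5.36 to 11.4 with a median of 7.16. Every plasma library was above every leucocyte library on both diets. With edgeR the log2 fold change (leucocytes over plasma) was -5.15 ± 1.18 on FD (adjusted p = 0.00448) and -3.55 ± 1.09 on HG (adjusted p = 0.0187). The HG call was lost without the plasma library of cow 4 or any 1 leucocyte library (adjusted p 0.0633 to 0.0932) and without the erythrocyte names (adjusted p = 0.0578).

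On FD the edgeR test called 2 of the 6 members, against 43.4% of 797 names, and on HG it called 1, against 38.5%. The second member on FD was bta-miR-29b, at -1.77 ± 0.626 (adjusted p = 0.0341). It lost the call with cow as a block (-1.16 ± 0.563, adjusted p = 0.127), and also when the plasma FD library of cow 1, 2 or 4 or any 1 leucocyte FD library was left out, where its log2 fold change was -1.73 to -0.83 and its adjusted p 0.0692 to 0.355. bta-miR-29a was at -0.95 ± 0.40 on FD (adjusted p = 0.0682) and -0.48 ± 0.395 on HG (adjusted p = 0.352), and bta-miR-29c at -1.60 ± 0.712 (adjusted p = 0.0823) and -0.66 ± 0.689 (adjusted p = 0.461).

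In divided RPM, all plasma libraries were above all leucocyte libraries for bta-miR-29a, bta-miR-29b and bta-miR-29d-3p on FD, as for 17.4% of names. On HG bta-miR-29c joined them, and 28.2% of names did so. The median of all names was 1.40 on FD and 0.52 on HG, and relative to it bta-miR-29a was at -2.35 and -1.0. Without the erythrocyte names the log2 fold change of bta-miR-29a turned to 0.015 on FD and 0.54 on HG, and that of bta-miR-29c on HG to 0.36, so these directions rest on the scaling. The log2 fold change of bta-miR-29d-3p stayed negative in all 17 fits on each diet, from -5.82 to -4.10 on FD and from -4.62 to -2.56 on HG.

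The divided counts also show how far the members' reads were shared. When a read fits only bta-miR-29d-3p the divided count keeps 100% of it, and when it fits all 7 entries of miR-29b, miR-29c and miR-29d-3p it keeps 14.3%. bta-miR-29d-3p kept 14.5 to 20.3% of its reads in plasma and 25 to 27.7% in leucocytes. Under the assumption that each read belonged either to its own name or to all 7 entries, 97.2% ± 2.52 (SD, n = 8) of its plasma reads and 86.0% ± 1.33 (SD, n = 6) of its leucocyte reads were shared.

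The same estimate for bta-miR-29c was 42.9% ± 16.4 of reads in plasma and 3.5% ± 0.532 in leucocytes. For bta-miR-29b it was 38.0% ± 21.1 and 2.07% ± 0.215. For all 3 names every cow's plasma mean was above every cow's leucocyte mean, and the two-sided exact permutation test over 4 and 3 cows gave p = 0.0571, the smallest it can give, with an adjusted p of 0.0952 over 5 comparisons. This test takes the means as independent although cows 1, 3 and 4 are in both sample types, and a paired test over these 3 cows could not go below 0.25. The same holds for the ratios between sample types. The 3 names should give the same number of shared reads. They did within 1.36 times in plasma but differed 1.94 to 2.63 times in leucocytes, where the assumption is therefore rough.

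Under that assumption and by the estimate from bta-miR-29d-3p itself, most of its reads also fit bta-miR-29b and bta-miR-29c in both sample types. In leucocytes this depends on the name used for the estimate. There bta-miR-29d-3p had a mean of 1206 reads. The mean number of shared reads was 1041 by bta-miR-29d-3p, 752 by bta-miR-29c and 500 by bta-miR-29b. In the divided level of bta-miR-29d-3p shared reads weigh less, because a shared read is kept only in part. Reads of the name alone made up a mean of 30.2 of 254 divided RPM in plasma, but 3.98 of 7.50 in leucocytes. Reads left to the name alone came to 1.90 to 74.8 RPM in plasma, with a median of 20.9, and to 2.86 to 6.01 RPM in leucocytes, with a median of 3.61, so that the sample types overlapped. This split was looked at after the data had been seen.

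**Figure D3:**
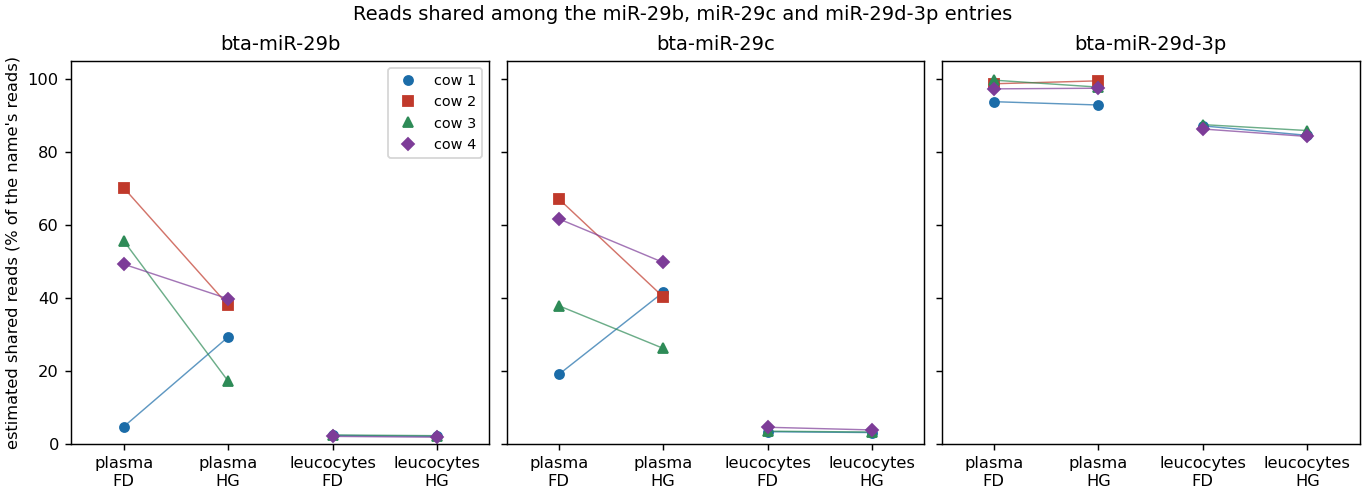
Estimated share of reads (percent) that bta-miR-29b, bta-miR-29c and bta-miR-29d-3p have in common with the other entries, by library, marked by cow. Shares for bta-miR-29b and bta-miR-29c reach 70.2% in plasma and stay at or below 4.47% in leucocytes, while bta-miR-29d-3p is above 84% throughout.

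The ratio of bta-miR-29b to bta-miR-29a, neighbours on chromosome 4, was 4.03 to 10.2% in plasma and 3.44 to 5.06% in leucocytes. The log2 ratio was 0.57 lower in leucocytes, which did not pass the two-sided exact permutation test over 4 and 3 cows (p = 0.114, smallest possible 0.0571, adjusted p = 0.143 over 5 comparisons). With undivided reads the difference (leucocytes minus plasma) was -0.82, and the cows' means did not overlap (p = 0.0571 in the same exact test, not adjusted). This comparison therefore depends on the dividing. The ratio of bta-miR-29c to bta-miR-29a was 2.19 to 15.6% in plasma and 6.46 to 8.95% in leucocytes (p = 0.743 in the same exact test, unchanged by the adjustment). Between diets in leucocytes the log2 ratio of bta-miR-29b to bta-miR-29a changed by -0.16 ± 0.136 (SD, n = 3 cows), lower in 3 of 3 cows, with an exact p of 0.25, the smallest that 3 cows allow (adjusted p = 0.35 over 7 comparisons).

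Reads of the 5′ arm were also set against those of the 3′ arm. Those named bta-miR-29d-5p could not be assigned to one hairpin, since the human entry hsa-miR-29c-5p, placed at the miR-29c hairpin, had the same read number in 10 of 13 libraries with reads and differed by at most 19 reads in the others. They are therefore set against bta-miR-29c. In leucocytes they amounted to 8, 7.14 and 7.52% of the bta-miR-29c reads in cows 1, 3 and 4 on FD, and to 9.91, 14 and 12.9% on HG.

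All 3 HG libraries were above all FD libraries, with a log2 ratio higher by 0.69 ± 0.343 (SD, n = 3) and an exact p of 0.25, the smallest possible. This separation follows from the levels given above and is no separate result. There bta-miR-29d-5p was higher and bta-miR-29c lower on HG, each without overlap. The 5′ arm of the miR-29a hairpin, counted under its human name, was at 0.120% ± 0.0301 of bta-miR-29a reads on FD and at 0.120% ± 0.0132 on HG, and its log2 ratio changed by 0.02 ± 0.356 (exact p = 1). The names hsa-miR-29b-1-5p and hsa-miR-29b-2-5p, set against bta-miR-29b, were higher on HG in 3 of 3 cows without overlap, as bta-miR-29d-5p was, but rest on few reads and were not tested. hsa-miR-29b-1-5p was at 0.121 to 0.268% of bta-miR-29b reads on FD and at 0.322 to 0.853% on HG, from 24 to 126 reads per library. hsa-miR-29b-2-5p was at 0.486 to 0.573% on FD and at 0.578 to 1.20% on HG, from 114 to 193 reads per library. The differences between the changes of the arms were not tested. In plasma the 5′ arm reads of bta-miR-29d ranged from 0 to 4.53% of the bta-miR-29c reads, and the diets overlapped.

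**Figure D4:**
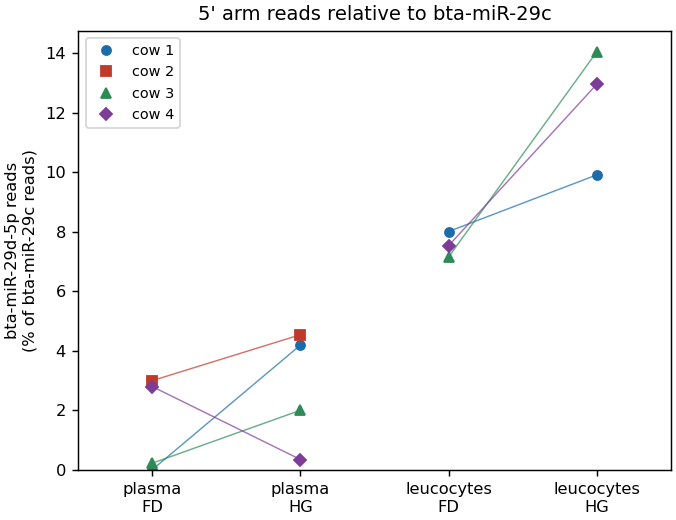
Reads of bta-miR-29d-5p in percent of the bta-miR-29c reads, by library, marked and joined by cow. Leucocyte libraries lie at 7.14 to 8% on FD and at 9.91 to 14% on HG, and plasma libraries at 0 to 4.53%.

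Names outside the family with a profile like that of bta-miR-29a were ranked by the SD of their log2 ratio to it over the libraries of a sample type. In leucocytes the closest of 292 names was bta-miR-497, with an SD of 0.085 over 6 libraries, followed by bta-miR-21-3p, bta-miR-28, bta-miR-11999 and bta-miR-30b-3p, against a median SD of 0.434. Among the members, left out of this ranking, bta-miR-29c came to an SD of 0.164, bta-miR-29d-3p to 0.204, bta-miR-29b to 0.221 and bta-miR-29d-5p to 0.429. In plasma the closest of 173 names was bta-miR-99a-5p, at 0.287 over 8 libraries, followed by bta-miR-375, bta-miR-92a, bta-miR-23b-3p and bta-miR-22-3p, against a median of 0.945. There bta-miR-29b came to 0.478, bta-miR-29c to 0.872 and bta-miR-29d-3p to 1.49, above the median. These libraries share depth and composition within a sample type, so the values are a description.

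The miR-26 and miR-30 families were read from the same fits for comparison. In leucocytes on HG, 0 of 2 miR-26 and 0 of 6 miR-30 names were called, with median log2 fold changes of -0.08 and -0.06 against -0.43 for miR-29. In plasma 0 of 2 and 0 of 6 were called, with medians of 0.18 and -0.03 against -0.84. The miR-29 median in plasma was -1.79 without cow 1, -0.17 without cow 2 and -0.36 with library size alone.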

How the data were processed

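Members and lists were chosen with earlier results of these data known. Per the labels and the study's methods, libraries were made with a NEXTflex (labelled NETflex) small RNA kit, demultiplexed with bcl2fastq 2.20, trimmed with Skewer, and assigned with sRNAbench and bowtie (2 mismatches) to UMD3.1 and miRBase 22, with bovine (bta) and human (hsa) entries. The authors deposited, per library, read counts (a read counts in full at each name), distinct sequences, and estimated counts (expected counts, in which a read is split over the entries it fits). Deposited RPM scores were used only to recover the reads per library. The authors' normalised tables were not used.

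Estimated counts were rounded, and names with at least 10 counts in total in the libraries fitted were tested with edgeR 4.0.16 (TMM, robust quasi-likelihood, R 4.3.3), with Benjamini-Hochberg adjustment over all names; the SE is the log2 fold change over the square root of F. DESeq2 1.42.0 was an alternative. Diets were fitted with cow as a block and sample types with 1 mean per group over 14 libraries. Ratios were tested by exact two-sided permutation. The fits were tested on simulated data.

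Leucocyte libraries were paired by the letter in their titles and plasma libraries by title order, checked against the study's numbering, where 504 of 504 values were equal. Deviations of the same cow correlated at 0.443 to 0.657 in leucocytes and at -0.238 to 0.171 in plasma, so the plasma profiles do not show the pairing. Each cow is 1 animal, sampled once per diet. Named were the 6 members, and the 5 names most like bta-miR-29a with a mean count of at least 100. Intervals for counting error are not given, because reads are not independent molecules. No sequence is printed. Read sharing and the 5′ arm ratio were added after the data had been seen, as was a filter on unrounded counts.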

Additional observations from a re-analysis of the deposited data

Results flagged for a closer look

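In 24 groups of 4 plasma libraries (members, ratios, read sharing and the family share), 1 value lay far from the other 3, where chance gives about 1 in 20. bta-miR-29e stood at 0.224 divided RPM in the HG plasma of cow 1 and was listed at 0 in the other HG plasma libraries. The value rests on 3 reads. With the other libraries of the group at 0, any value above 0 would have been flagged. The rate of about 1 in 20 does not apply to such a group.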

How the results depend on the processing

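In plasma and in the interaction no member was called under any alternative, and among all names DESeq2 called 10 and 14 against 0. In leucocytes the number of members called between diets was 0 with edgeR, 2 with DESeq2, 1 without the filter on low counts, 1 with undivided reads and 0 to 2 when a cow was left out; all names called numbered 14, against 28 with DESeq2, 9 with DESeq2-type size factors, 5 with bta rows alone, and 9, 0 and 111 without cows 1, 3 and 4. Without the replicate block, 0 members and 0 of all names were called there. The direction of bta-miR-29a, bta-miR-29b, bta-miR-29c and bta-miR-29d-3p in leucocytes was the same in all 11 alternatives.

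For sample types on FD, 2 members were called, against 1 with DESeq2-type size factors, 5 with library size alone, 1 with the replicate block, 1 without erythrocyte names and 1 to 3 when a library was left out. On HG 1 was called, against 4 with library size alone, 0 without erythrocyte names and 0 to 1 when a library was left out. Calls over all names were split as 186 higher and 160 lower on FD, 128 and 186 with library size alone, and 266 and 102 without erythrocyte names, and on HG as 165 and 142, 79 and 225, and 253 and 96. Without erythrocyte names the log2 fold change of bta-miR-29a turned to 0.015 on FD and 0.54 on HG and that of bta-miR-29c to 0.36 on HG. When a library was left out, that of bta-miR-29a ran from -1.05 to 0.012 on FD and from -0.67 to 0.38 on HG, and that of bta-miR-29c from -0.91 to 0.18 on HG.

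With library size alone, bta-miR-29d-5p in plasma changed to 0.16 and the interaction to -0.11 for bta-miR-29a, -0.23 for bta-miR-29b and -0.087 for bta-miR-29c. When a cow was left out, bta-miR-29d-5p in plasma ran from -1.86 to 1.03 and the interaction from -0.20 to 0.72, -0.44 to 0.48 and -0.31 to 1.07 for the same 3 members. The log2 ratio of bta-miR-29c to bta-miR-29a changed by -0.10 between diets in plasma with undivided reads and by -0.59 to 0.30 when a cow was left out, by -0.20 to 0.079 in leucocytes, and by -0.50 to 0.10 between sample types. The ratio of bta-miR-29b to bta-miR-29a changed by -0.24 to 0.15 between diets in plasma. Shared reads of bta-miR-29d-3p changed by -0.88 to 0.022 percentage points between diets in plasma, and the log2 5′ arm ratio of miR-29a in leucocytes by -0.16 to 0.19. With the human rows added, the family's share fell by 0.214 percentage points in leucocytes, against 0.107. The filter on unrounded counts, chosen after seeing the data, changed no member's call. The cause of these changes was not tested. Depth limits bta-miR-29e and the 5′ arms in plasma.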

Other observations

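The names hsa-miR-29b-1-5p and hsa-miR-29b-2-5p, counted only under human names, were scarce. Reads of hsa-miR-29b-2-5p were placed both at the miR-29b-2 and at the bta-mir-29e hairpin and cannot be assigned to one of them. In leucocytes hsa-miR-29b-2-5p was at 1.32 to 2.98 divided RPM and hsa-miR-29b-1-5p at 1.10 to 3.22. In plasma hsa-miR-29b-1-5p had 134 reads of a single sequence in the HG library of cow 1 and at most 2 reads elsewhere, and hsa-miR-29b-2-5p had 66 reads of a single sequence in the HG library of cow 4 and at most 4 elsewhere.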
